A study of Mus musculus with 36 samples.

Results

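Heat shock proteins and their DnaJ cochaperones were followed at the level of RNA and of promoter H2A.Z in the mouse hippocampus. Members were the genes whose symbols in the count files start with Hspa, Hspb, Hspd, Hspe, Hsph, Hsp90, Dnaja, Dnajb or Dnajc followed by a digit, a or b. The rule found 73 of 24060 genes: 13 Hspa, 9 Hspb, 3 Hsp90, 4 Dnaja, 13 Dnajb and 28 Dnajc genes, with Hspd1, Hspe1 and Hsph1. The prefix also takes in Hspbap1, which encodes a protein that binds a small heat shock protein, and Hspb11, which encodes a part of the intraflagellar transport machinery. Of the consensus H2A.Z peaks in the authors' deposited table, 60 lay within 1000 bp of the start site of a member, out of 12204 promoter peaks of all genes, and they belonged to 59 of the 73 members.

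All mice were C57BL/6J, and whole hippocampus was taken. The groups were old conditioned mice and old naive mice, both 15.5 months of age, and young conditioned mice and young naive mice, both 2.5 months of age. Conditioned mice went through a session of 5 min with 3 foot shocks of 0.5 mA of 2 s each. Tissue was snap-frozen at 30 min from the end of the session. There were 12 libraries of RNA and a separate set of 12 for H2A.Z, 3 for each group. The labels do not say that each library came from a separate animal, so p-values measure the spread between these libraries.

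Proteins of the Hsp70 family (Hspa genes) hold unfolded stretches of other proteins and release them in cycles driven by ATP. DnaJ proteins bring clients to Hsp70 and speed its ATPase, Hsp110 proteins such as Hsph1 reset it, Hsp90 acts later in folding, and small heat shock proteins (Hspb genes) keep unfolded proteins from clumping. Genes of the cytosolic set are switched on by the heat shock factor Hsf1 through heat shock elements, and those of the endoplasmic reticulum by the unfolded protein response through the endoplasmic reticulum stress element. H2A.Z is a histone variant found in the nucleosomes next to start sites.

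The promoters below are examples: 3 of the members with a heat shock element, the 3 members with an endoplasmic reticulum stress element, and 1 promoter from each of the lists of H2A.Z calls at the 2 ages, described further on. Each is the run of 250 bases before a start site in RefSeq, on GRCm38.p6, 5′ to 3′ on the strand of the gene. In the first 6, capitals mark the heat shock element (GAANNTTC or TTCNNGAA) in Hspa1a, Hspa1b and Hspb1, and the endoplasmic reticulum stress element (CCAAT, 9 bases, CCACG, on either strand) in Hspa5, Hsp90b1 and Dnajc3. In Dnajc28 and Dnajc25 capitals mark CpG dinucleotides.
Hspa1a, chr17:34972157-34972406, minus strand: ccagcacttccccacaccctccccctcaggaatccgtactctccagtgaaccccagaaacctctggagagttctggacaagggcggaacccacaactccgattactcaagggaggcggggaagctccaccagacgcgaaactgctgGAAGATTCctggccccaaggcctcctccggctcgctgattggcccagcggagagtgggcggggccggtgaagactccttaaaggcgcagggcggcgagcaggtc
Hspa1b, chr17:34959239-34959488, minus strand: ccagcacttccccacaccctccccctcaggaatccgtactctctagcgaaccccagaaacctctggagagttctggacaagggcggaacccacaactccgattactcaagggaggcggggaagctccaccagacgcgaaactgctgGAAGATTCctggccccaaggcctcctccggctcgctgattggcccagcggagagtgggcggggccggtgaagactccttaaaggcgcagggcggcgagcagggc
Hspb1, chr5:135887669-135887918, plus strand: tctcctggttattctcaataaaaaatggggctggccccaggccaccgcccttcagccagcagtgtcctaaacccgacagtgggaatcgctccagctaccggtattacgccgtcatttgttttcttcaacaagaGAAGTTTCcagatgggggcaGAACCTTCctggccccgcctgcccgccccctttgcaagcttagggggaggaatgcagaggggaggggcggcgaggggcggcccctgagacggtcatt
Hspa5, chr2:34771840-34772089, plus strand: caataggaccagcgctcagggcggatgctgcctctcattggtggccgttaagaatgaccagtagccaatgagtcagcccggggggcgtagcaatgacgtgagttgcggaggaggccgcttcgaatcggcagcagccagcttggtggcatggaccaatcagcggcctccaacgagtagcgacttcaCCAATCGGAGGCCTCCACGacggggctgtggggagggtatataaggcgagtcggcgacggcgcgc
Hsp90b1, chr10:86705445-86705694, minus strand: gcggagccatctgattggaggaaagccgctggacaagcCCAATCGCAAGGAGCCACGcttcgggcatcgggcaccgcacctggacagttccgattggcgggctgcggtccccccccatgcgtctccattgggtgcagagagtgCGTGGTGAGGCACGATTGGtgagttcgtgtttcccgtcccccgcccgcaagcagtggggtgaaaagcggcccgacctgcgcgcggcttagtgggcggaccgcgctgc
Dnajc3, chr14:118937682-118937931, plus strand: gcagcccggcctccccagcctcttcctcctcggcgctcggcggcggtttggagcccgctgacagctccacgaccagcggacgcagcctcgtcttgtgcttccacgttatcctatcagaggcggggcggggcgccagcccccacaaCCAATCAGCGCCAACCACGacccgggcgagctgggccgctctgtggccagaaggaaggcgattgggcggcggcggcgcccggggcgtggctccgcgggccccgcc
Dnajc28, chr16:91619000-91619249, minus strand: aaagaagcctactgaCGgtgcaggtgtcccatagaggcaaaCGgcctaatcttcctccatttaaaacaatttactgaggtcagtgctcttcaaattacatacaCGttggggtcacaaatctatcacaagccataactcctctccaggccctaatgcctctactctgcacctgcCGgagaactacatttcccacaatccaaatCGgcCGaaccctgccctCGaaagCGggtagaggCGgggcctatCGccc
Dnajc25, chr4:59002943-59003192, plus strand: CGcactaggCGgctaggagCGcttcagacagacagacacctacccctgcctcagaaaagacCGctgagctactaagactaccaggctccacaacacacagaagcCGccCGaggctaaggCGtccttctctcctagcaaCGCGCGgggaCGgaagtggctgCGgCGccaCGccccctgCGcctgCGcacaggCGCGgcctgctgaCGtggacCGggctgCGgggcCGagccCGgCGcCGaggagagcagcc

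RefSeq promoters of 300 bases (250 before and 50 after the start) were at hand for 59 members, with 76 promoters in all. A heat shock element in either orientation was found in 16 of these 59 genes (27.1%), against 17.0% of 27025 genes. Hspd1 and Hspe1 are both among the 16, although their promoters overlap on opposite strands and so count the same stretch for both genes. Among the listed stress-inducible chaperones it was found in 9 of 13 genes with a promoter. The 9 include Hspd1 with Hspe1, and Hspa1a with Hspa1b, so they are not independent sequences. The list was made for stress-inducible genes, so this share is no separate finding. Hspa1a and Hspa1b, the inducible Hsp70 pair, carried the element at the same place, position -104 from the start, and 3 of their 250 bases differed. Reads that match both of these near-identical genes could be split between them or left out by the counting. Their separate values, and their sum, are therefore uncertain. Hspb1, a small heat shock protein, carried 2, at positions -117 and -97. The endoplasmic reticulum stress element was found in 3 of 9 endoplasmic reticulum chaperone genes and in 39 of 32851 promoters (0.119%). It began at -65 in Hspa5, at -105 in Dnajc3, and at -212 and -107 in Hsp90b1, which carried 2. A match of letters is a description of the sequence and not of binding.

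RNA libraries held 9410843 to 13350561 counts. Of the 73 members, 62 passed the filter on low counts. The 11 that did not were Dnajb7, Dnajb8, Dnajb13, Dnajc5b, Dnajc5g, Dnajc22, Hspa1l, Hspb2, Hspb3, Hspb7 and Hspb9. Their summed counts over the 12 libraries lay between 0 (Dnajb8 and Dnajc5g) and 64 (Hspa1l, a testis-enriched Hsp70). Among the members, read counts scaled to library size (CPM, the usual short form) were highest on average for Hspa8 (1938), Hsp90ab1 (1647), Hsp90aa1 (1211), Dnajc6 (455) and Hspa12a (402). They were lowest among tested members for Dnajb3 (1.35), Hspb6 (2.2), Hspb1 (2.94), Dnajc25 (4.13) and Hspb11 (4.53). These are not scaled by transcript length, so they give no order of transcript numbers. All 8 excitatory neuron markers had counts in every library. Summed choroid plexus markers, a tissue that adjoins the hippocampus, ran from 262 to 424 CPM in old conditioned, 443 to 2977 in old naive, 264 to 3556 in young conditioned and 501 to 4759 CPM in young naive libraries. In bulk tissue, fewer cells of a type and less RNA per cell cannot be told apart.

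Training was compared at each age, asking whether chaperone RNA differed 30 min after conditioning. No member differed between conditioned and naive mice of either age, by edgeR's quasi-likelihood test with Benjamini-Hochberg adjustment over 14405 genes. In old mice the count was 0 of 62, where 0.0139% of all tested genes passed, and in young mice it was also 0, where 0.0278% passed. DESeq2 called 0 members at either age. At an unadjusted p under 0.05, 3 members were found in old mice (7.16% of all tested genes) and 6 in young mice (6.63%). The median log2 difference of members was 0.01 in old and 0.03 in young mice, beside -0.00218 and -0.00627 over all tested genes. The 95% interval of the difference lay within 0.5 log2 of 0 for 56 of 62 members in old mice and for 51 in young mice, and within 1 for 60 at each age.

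The listed stress-inducible chaperones were centred near 0 as a group. The list also takes in the constitutive Hspa8 and Hsp90ab1, and Hspd1 and Hspe1 of mitochondria. Of the 16, 10 were above and 6 below 0 in old mice (median log2 difference 0.03), and 9 were above and 7 below in young mice (median 0.00373), none past the threshold. Hspa1b had 10.4, 10.4 and 9.74 CPM in old conditioned, 12.4, 7.70 and 7.98 in old naive, 12.1, 8.58 and 8.81 in young conditioned, and 13.4, 7.94 and 11.6 CPM in young naive libraries. The groups overlapped, and its log2 difference with training was 0.11 ± 0.21 (SE) in old and -0.13 ± 0.21 in young mice. Its neighbour Hspa1a, at 5.71 to 8.68 CPM over all libraries, differed by 0.04 ± 0.16 in old and -0.01 ± 0.17 in young mice. Dnajb1, the DnaJ partner of inducible Hsp70, had 51.0, 51.5 and 44.2 CPM in old conditioned, 59.1, 43.0 and 39.6 in old naive, 51.7, 47.3 and 41.9 in young conditioned, and 64.3, 38.7 and 38.9 CPM in young naive libraries. In both naive groups 1 library stood above every conditioned library, and the other 2 stood at or below the lowest conditioned ones. Hspa8, the constitutive Hsp70 that also uncoats clathrin vesicles, had 2042, 2006 and 1897 CPM in old conditioned and 2147, 1835 and 1602 CPM in old naive libraries. In young mice it had 2079, 1882 and 1882 CPM in conditioned and 2078, 2019 and 1786 CPM in naive libraries, again overlapping.

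Other genes listed with the stress-inducible chaperones moved as little. Hsp90aa1, the inducible cytosolic Hsp90, differed with training by -0.07 ± 0.07 in old and 0.03 ± 0.07 in young mice, and its constitutive partner Hsp90ab1 by 0.00411 ± 0.06 in old and 0.02 ± 0.06 in young mice. Hsph1 differed by -0.10 ± 0.09 in old and -0.03 ± 0.09 in young mice, and its Hsp110 relatives Hspa4 and Hspa4l by no more than 0.04 in size at either age. Dnaja1, Dnajb4 and Dnajb5, further DnaJ partners of cytosolic Hsp70, lay between 0.04 and 0.11 in old mice and between 0.18 and 0.20 in young mice. The small heat shock proteins Hspb1 and Hspb8 had wider errors: Hspb1 differed by 0.14 ± 0.30 in old and -0.16 ± 0.28 in young mice, and Hspb8 by -0.16 ± 0.14 and -0.05 ± 0.14. Hspb6, another small heat shock protein, differed by -0.32 ± 0.42 and -0.31 ± 0.39. Its highest value, 4.28 CPM, was in young naive library 81, which also held the highest choroid plexus sum, 4759 CPM; the part of that tissue in the value was not tested.

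With training, the members with an unadjusted p under 0.05 each had an adjusted p of 0.695 or above in edgeR's test. Members described here and below by their p were picked for it, so a lack of overlap between their groups is no further evidence. The share of all genes whose groups do not overlap was not counted. In old mice the lowest unadjusted p was that of Dnajc1, a J protein of the endoplasmic reticulum membrane. It had 41.2, 46.7 and 45.8 CPM in old conditioned and 55.9, 49.1 and 51.2 CPM in old naive libraries, without overlap. Its log2 difference was -0.22 ± 0.08 (adjusted p = 0.695). Dnajc27, a J protein with a small GTPase domain, had 164, 166 and 170.4 CPM in old conditioned and 155, 159 and 142 CPM in old naive libraries, a difference of 0.14 ± 0.06. Dnajb3, at 0.603 to 2.13 CPM over all libraries, differed by -0.81 ± 0.38. Dnajc3, an inhibitor of the kinase that slows translation in the unfolded protein response, came next at -0.20 ± 0.11, followed by Hspa12a at 0.11 ± 0.06 and Hspa14, a ribosome-associated Hsp70, at 0.17 ± 0.10.

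In young mice Dnajb9, which binds the endoplasmic reticulum Hsp70, had 45.3, 46.7 and 43.0 CPM in conditioned and 37.0, 30.9 and 40.9 CPM in naive libraries. All 3 conditioned libraries were above all 3 naive ones, a log2 difference of 0.32 ± 0.10 (adjusted p = 0.730). Hspa13, an Hsp70 of the endoplasmic reticulum, had 70.0, 75.6 and 69.2 CPM in young conditioned and 62.6, 62.1 and 60.3 CPM in young naive libraries, with no overlap and a difference of 0.22 ± 0.08 (adjusted p = 0.730). Dnajc4, a little-studied J protein, went the other way, with 5.43, 5.75 and 6.58 CPM in young conditioned and 8.27, 7.79 and 8.27 CPM in young naive libraries. The groups did not overlap and the difference was -0.46 ± 0.15 (adjusted p = 0.730). Dnajc7, a J protein that binds both Hsp70 and Hsp90, differed by 0.19 ± 0.07, Dnaja2 by 0.17 ± 0.07 and Dnajb6, which keeps aggregation-prone proteins soluble, by 0.16 ± 0.07 in young mice. Averaged over ages, 0 members passed in edgeR's test and 0 in DESeq2, where 0.0764% of all tested genes passed. In that average 3 members had an unadjusted p under 0.05 (6.99% of all tested genes), Dnajb3 at -0.69 ± 0.27, Dnaja2 at 0.11 ± 0.05 and Dnajc1 at -0.13 ± 0.06.

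**Figure D1:**
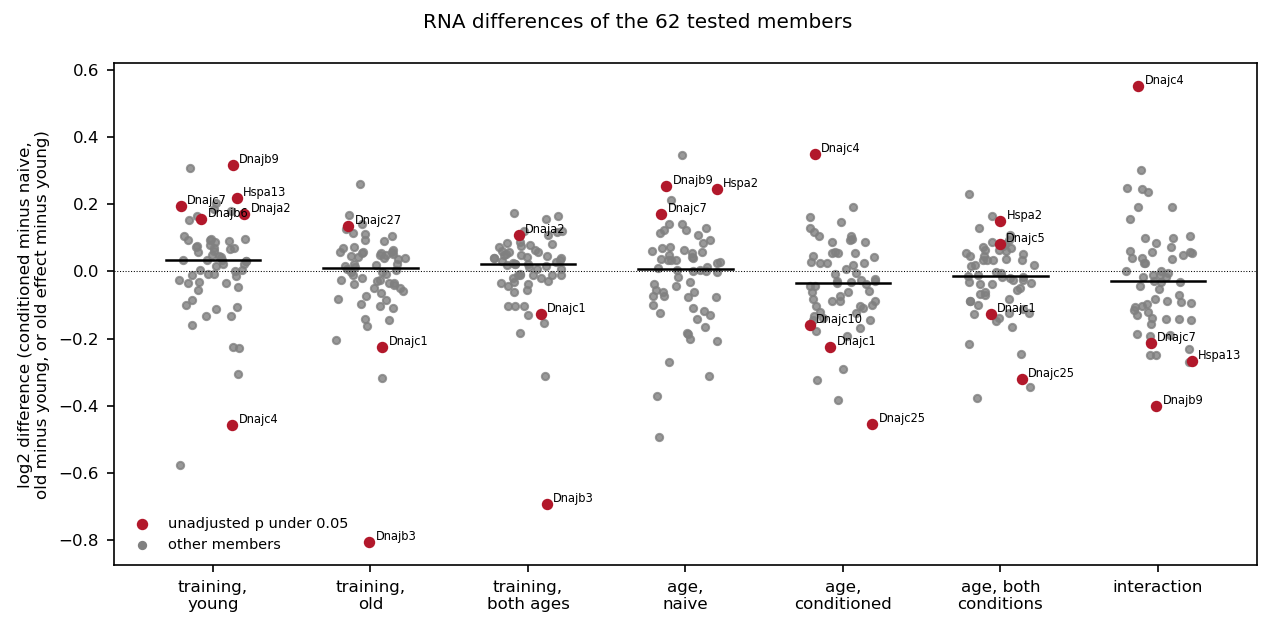
Log2 RNA differences of the 62 tested members in each of the 7 comparisons (vertical axis), 1 point per gene, with a line at the median of members and red points for an unadjusted p under 0.05. Medians stayed between -0.03 and 0.03, and none of the points passed the adjusted threshold.

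Age was compared in each condition. In naive mice 0 members passed in edgeR's test (0.0555% of all tested genes) and 0 in DESeq2, which gave no adjusted p for 10 members. In conditioned mice 0 passed (0.0347% of all tested genes), also in DESeq2, which gave no adjusted p for 46 members. Averaged over conditions the count was 0 (0.375% of all tested genes), and 0 in DESeq2, with no adjusted p for 7. At an unadjusted p under 0.05 the members counted were 4 in conditioned mice (13.4% of all tested genes), 3 in naive mice (10.3%) and 4 in the average (16.6%). Hspa2, an Hsp70 best known from germ cells, had 94.2, 73.9 and 86.4 CPM in old naive and 73.1, 71.9 and 70.0 CPM in young naive libraries. Every old naive library was above every young naive one, a log2 difference of 0.25 ± 0.09 (adjusted p = 0.351). In conditioned mice Hspa2 had 87.6, 73.7 and 86.8 CPM in old and 82.3, 77.0 and 79.5 CPM in young libraries, and these overlapped.

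Old naive mice also differed from young naive mice by 0.25 ± 0.10 in Dnajb9 and by 0.17 ± 0.07 in Dnajc7, and the next members in order of p were Dnaja2 (0.14 ± 0.07), Dnajc13 (-0.13 ± 0.06) and Hspa14 (-0.19 ± 0.10). In conditioned mice Dnajc1 differed between old and young by -0.22 ± 0.08, Dnajc10, a disulfide reductase of the endoplasmic reticulum, by -0.16 ± 0.07, Dnajc4 by 0.35 ± 0.15 and Dnajc25 by -0.46 ± 0.20. Dnajc17 (-0.32 ± 0.16) and Dnajb2 (0.16 ± 0.08), a J protein of neurons, followed with p above 0.05. The age differences of Dnajc1 and Dnajc4 in conditioned mice share conditioned libraries with their training differences, so these values are not independent. Averaged over conditions, Dnajc5, the cysteine string protein of synaptic vesicles, had 423, 414 and 419.7 CPM in old conditioned and 412, 392 and 393 CPM in old naive libraries. It had 407, 383 and 387 CPM in young conditioned and 386, 382 and 374 CPM in young naive libraries. The age difference of Dnajc5 was 0.08 ± 0.03 (adjusted p = 0.253), and its 12 libraries varied least of all members within groups. Dnajc25 (-0.32 ± 0.14), Dnajc17 (-0.24 ± 0.12) and Dnaja3 (0.09 ± 0.05), a mitochondrial J protein, came next.

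The interaction asked whether the training difference in old mice departed from that in young mice. In edgeR's test 0 of 62 members passed and 0 of all tested genes (0%), and DESeq2 called 0 members. At an unadjusted p under 0.05 there were 4 members (7.20% of all tested genes). Dnajb9 had a training difference of -0.08 ± 0.10 in old and 0.32 ± 0.10 in young mice, an interaction of -0.40 ± 0.14 (adjusted p = 0.680). In old mice it had 41.1, 39.2 and 41.9 CPM in conditioned and 48.2, 41.9 and 39.3 CPM in naive libraries. Dnajc4 had 0.09 ± 0.15 in old and -0.46 ± 0.15 in young mice, an interaction of 0.55 ± 0.21. Hspa13 (-0.27 ± 0.12) and Dnajc7 (-0.21 ± 0.10) made up the 4, and Dnajb6 (-0.19 ± 0.09) and Dnajb2 (0.24 ± 0.12) followed. The interaction, the training difference in young mice and the age difference in naive mice share the young naive libraries, so the values of Dnajb9 and Dnajc7 in these 3 comparisons are not independent.

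**Figure D2:**
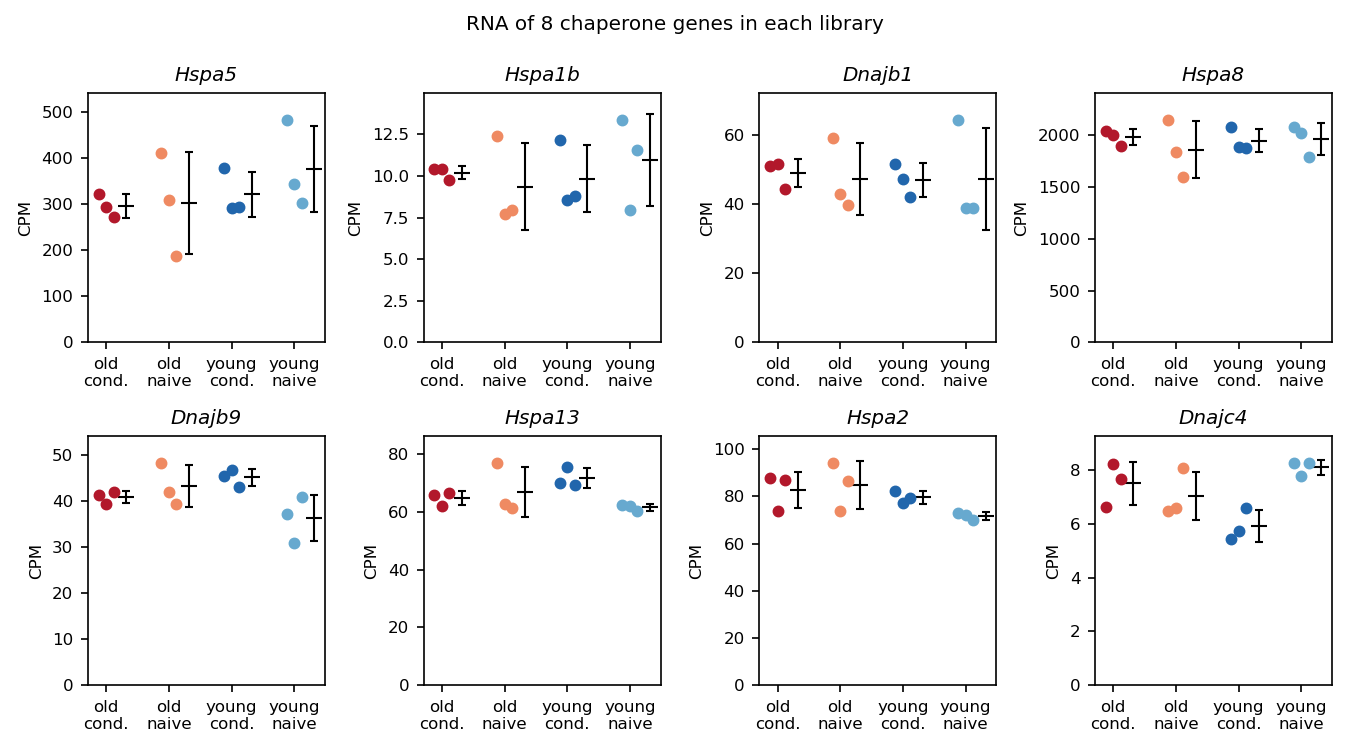
CPM (vertical axes, from 0) of 8 members in each RNA library, with old conditioned, old naive, young conditioned and young naive libraries from left to right and the mean ± SD of 3 libraries beside the points. Hspa5, Hspa1b and Dnajb1 spread widely within the naive groups. Dnajb9, Hspa13, Hspa2 and Dnajc4 show the separations given in the text, where they were picked for a small unadjusted p.

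Among members with a mean of at least 10 CPM, the widest spread lay within groups. Hspa5, the Hsp70 of the endoplasmic reticulum known as BiP, had 322, 293 and 271 CPM in old conditioned, 410.3, 308 and 188 in old naive, 377, 292 and 294 in young conditioned, and 482, 343 and 302 CPM in young naive libraries. The highest library was 2.56 times the lowest, and the naive libraries of each age overlapped the conditioned ones. Its SD within groups was 0.36 on the log2 scale, a value that 98.9% of genes with at least 10 CPM did not exceed. Hspa1b (SD 0.30, 98.2%) and Dnajb1 (SD 0.28, 97.5%) followed. Hspa1b, with a mean of 10.1 CPM, lay just above the cut, and the SDs were not compared at matched levels. The median SD of the 50 members at this level was 0.11, the same as over 9867 genes, so a wide spread was not a feature of the members as a set. The training difference of Hspa5 was -0.03 ± 0.21 in old and -0.22 ± 0.21 in young mice, and its age difference was -0.31 ± 0.21 in naive mice.

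Single libraries held many of the extremes. Young naive library 79 was the highest of the 12 for 7 of 16 stress-inducible chaperones, 5 of 10 endoplasmic reticulum chaperones and 12 of 22 tested genes of the unfolded protein response, and for 13.9% of all tested genes. Old naive library 67 was the highest for 7 of the 16 stress-inducible chaperones and for 6.74% of all tested genes. Old naive library 71 was the lowest for 4 of 10 endoplasmic reticulum chaperones and 10 of the 22 response genes, beside 9.44% of all tested genes. Young naive library 81 was the lowest for 8 of 16 stress-inducible and 4 of 8 mitochondrial chaperones, beside 15.7% of all tested genes. The stress-inducible and mitochondrial lists share Hspd1 and Hspe1, so their counts are not independent. Hsp90b1, the Hsp90 of the endoplasmic reticulum, followed Hspa5 in this: it had 419.9, 401 and 300.4 CPM in old naive and 446, 399 and 378 CPM in young naive libraries. Dnajb11, a partner of Hspa5, had 49.2, 48.6 and 36.3 CPM in old naive and 59.4, 38.0 and 43.6 CPM in young naive libraries.

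**Figure D3:**
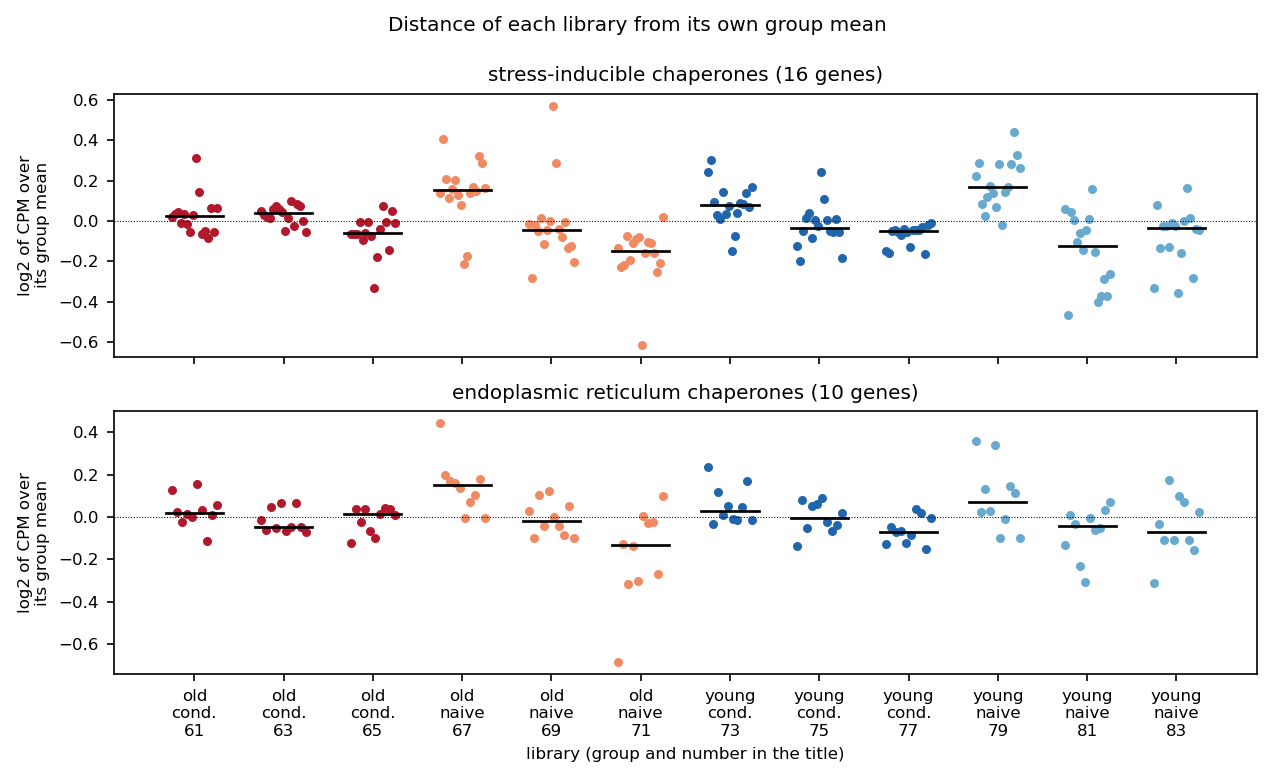
Log2 ratio of each library to the mean of its own group (vertical axis) for 16 stress-inducible and 10 endoplasmic reticulum chaperones, 1 point per gene, with a line at the median; libraries run from old conditioned to young naive and are numbered as in their titles. Libraries 67 and 79 lie mostly above 0 and library 71 mostly below.

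No mitochondrial or synaptic chaperone passed the threshold. Hspa9, the Hsp70 of mitochondria, ran from 209 to 241 CPM over the 12 libraries, Hspd1 from 159 to 200.5 and its cofactor Hspe1 from 35.4 to 60.6. The 8 mitochondrial members had a median training difference of -0.00909 in old and 0.08 in young mice, with 4 above 0 in old and 7 in young mice. Their median age difference in naive mice was 0.08, with 7 of 8 above 0. Dnajc6, the auxilin that strips clathrin from vesicles, ran from 431 to 493 CPM and Dnajc13, which acts on endosomes, from 109 to 126. The 5 synapse and vesicle members had median training differences of -0.00302 in old and 0.00341 in young mice. Dnaja4 ran from 53.5 to 78.4 CPM, Hspa12b, an Hsp70 of endothelium, from 2.84 to 6.64, and Hspbap1 from 3.76 to 6.46.

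Other genes of the pathways were counted from lists. Of 35 tested cochaperones and heat shock factors, 13 tested genes of the chaperonin TRiC and prefoldin and 22 of the unfolded protein response, 0 passed in any of the 7 comparisons in edgeR's test, and DESeq2 called 0 of those it gave an adjusted p. Counts at an unadjusted p under 0.05 follow in the order of these lists, with the share of all tested genes in brackets. With training they were 1, 0 and 0 in old mice (7.16%), 1, 2 and 4 in young mice (6.63%) and 0, 0 and 0 averaged (6.99%). With age they were 3, 1 and 2 in naive mice (10.3%), 5, 1 and 1 in conditioned mice (13.4%) and 6, 4 and 2 averaged (16.6%). In the interaction they were 5, 2 and 1 (7.20%). With training, 12 of 22 response genes were above 0 in old mice (median 0.01) and 5 of 22 in young mice (median -0.10). The smallest p among list genes with training were those of Fkbp5 (log2 difference -0.22 ± 0.09), Bag4 (-0.14 ± 0.07) and Hsf1 (0.19 ± 0.11) in old mice. In young mice they were those of Vbp1 (0.19 ± 0.08), Cct2 (0.12 ± 0.05) and Ern1 (-0.27 ± 0.12), and averaged over ages those of Edem1 (-0.11 ± 0.06), Atf4 (0.13 ± 0.07) and Sgtb (0.09 ± 0.05). With age they were those of Cct2 (0.17 ± 0.05), Ern1 (-0.37 ± 0.12) and Fkbp5 (0.27 ± 0.10) in naive mice and of Fkbp8 (0.21 ± 0.06), Hsf2 (-0.30 ± 0.09) and Bag6 (0.19 ± 0.06) in conditioned mice. Averaged over conditions Tomm34 (0.16 ± 0.05), Bag3 (0.35 ± 0.12) and Fkbp8 (0.12 ± 0.04) led by age, and in the interaction Fkbp5 (-0.35 ± 0.13), Vbp1 (-0.30 ± 0.12) and Bag4 (-0.23 ± 0.10). Ern1 encodes a sensor of unfolded proteins, Fkbp5 a cochaperone of steroid receptors induced by glucocorticoids, and Bag3 an Hsp70 partner in selective autophagy.

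Promoter H2A.Z was taken from the authors' deposited table, which holds no values per library, so its folds and false discovery rates (FDR) are described here without a test of their own. Folds are given as conditioned minus naive or old minus young on the log2 scale. Groups written with T there were read as conditioned because the other letters stand for naive mice. A promoter peak was present at 58 of the 62 tested members (93.5%), against 75.1% of all tested genes, and at 1 of the 11 untested members (Hspb9), against 8.59% of all untested genes. Of the 14 members without one by the rule, 4 had their start covered by a peak listed under another gene or another start. Dnajc22, Dnajc5b and Hspb2, also among the 14, had no RefSeq promoter at hand and could not be checked. Dnajb4 lay under a peak of Fubp1, Hspb11 under one of Lrrc42, Hspe1 under that of Hspd1, with which it shares a promoter, and Dnajb5 under a peak listed at a distance of -2805 bp. In turn, at least 10 of the 60 peaks covered a start of another gene, since RefSeq promoters were not at hand for every gene. Among them were those of Hspd1 (Hspe1), Hspa14 (Cdnf), Hspb6 (Proser3), Dnajc2 (Psmc2) and Dnajc17 (Zfyve19). Such peaks cannot be given to 1 gene alone.

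In the authors' deposited table H2A.Z was lower after training at nearly all member promoters, as it was at nearly all promoters. Conditioned values were below naive values at 58 of 60 peaks in old mice and at 58 of 60 in young mice. The median log2 fold of member peaks was -0.98 in old mice and -0.69 in young mice, beside -1.03 and -0.63 over all 12204 promoter peaks of the authors' deposited table. Past FDR 0.05, 12 of 60 member peaks fell in old mice, where 15.9% of all promoter peaks did, and 11 of 60 fell in young mice, where 14.5% did. The shares of members, 20% in old and 18.3% in young mice, were near these backgrounds. None of the member peaks passed as higher, against 0 and 2 of all promoter peaks. The sources do not state how the H2A.Z libraries were scaled against each other, and the part of that scaling in the common shift was not tested.

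The lists of peaks past FDR 0.05 at the 2 ages did not overlap in the authors' deposited table. The 12 that fell in old mice were those of Dnaja1, Dnaja2, Dnajb9, Dnajc1, Dnajc2, Dnajc3, Dnajc12, Dnajc21, Dnajc25, Hspa4, Hspa4l and Hspd1. The 11 that fell in young mice were those of Dnajc4, Dnajc15, Dnajc16, Dnajc17, Dnajc18, Dnajc28, Hspa13, Hspa14, Hspb1, Hspb6 and Hspb8. The lists shared 0 peaks, which is 0% of each. Over all promoter peaks 133 were shared, 6.86% of the old calls and 7.49% of the young calls. The lists leave out a peak listed under Eno4 that covered a RefSeq start of Hspa12a. That peak fell at both ages, with folds of -2.09 (FDR 0.00128) in young and -2.08 (FDR 0.012) in old mice. The peak listed under Hspa12a itself, at another start, passed at neither age (FDR 0.151 in young and 0.222 in old mice). Peaks called at 1 age were also below 0 at the other. The 12 old calls had young folds of -1.49 to -0.20 and the 11 young calls had old folds of -2.64 to -0.66. In old mice the median fold was -1.19 for the old calls and -1.55 for the young calls, so the peaks called only in young mice had the lower median there too, without passing the FDR. Whether the folds differed between ages was not tested. At FDR 0.10, where the counts were 20 and 13, Dnajc4 was called at both ages.

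Among the 12 peaks past FDR 0.05 in old mice, the lowest folds in the authors' deposited table were those of Dnajc12, a J protein that helps fold aromatic amino acid hydroxylases, at -3.68 (FDR 0.022), Dnajc25 at -1.55 (FDR 0.0034), Dnajb9 at -1.33 (FDR 0.0112), Dnajc2, a ribosome-associated J protein, at -1.29 (FDR 0.0467) and Dnajc1 at -1.28 (FDR 0.0129). The smallest falls among old calls were those of Hspd1 (-0.89), Dnaja1 (-0.98), Hspa4 (-1.04), Dnaja2 (-1.05) and Dnajc21 (-1.11). Dnajc12 had the lowest level of the 60 peaks in old conditioned mice, 1.45 on the log2 scale of the authors' deposited table, where the median was 6.73. Its peak was called in 0 of 3 old conditioned and 1 of 3 old naive libraries. Dnajc25 had peaks in all 3 libraries of both old groups. Its fold in young mice was -0.70 (FDR 0.444).

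Among the 11 peaks past FDR 0.05 in young mice, the lowest folds in the authors' deposited table were those of Hspa13 at -4.63 (FDR 8.18e-08), Hspb1 at -2.47 (FDR 0.0158), Dnajc28 at -2.2 (FDR 0.000733), Dnajc15, a J protein of the mitochondrial inner membrane, at -2.2 (FDR 0.000801) and Dnajc4 at -2.10 (FDR 0.000867). The smallest falls among young calls were those of Hspa14 (-1.18), Dnajc16 (-1.45), Dnajc17 (-1.60), Hspb6 (-1.75) and Dnajc18 (-1.85). The Hspa13 peak (chr16:75766396-75766914, mm10, exonic in the authors' annotation) was called in 0 of 3 young conditioned and 3 of 3 young naive libraries. In old mice it was called in 1 of 3 conditioned and 2 of 3 naive libraries, with a fold of -2.64 (FDR 0.161) in the authors' deposited table. The inducible genes Hspa1a and Hspa1b, whose promoters are printed above, had folds of -1.01 and -0.71 in old and -0.78 and -0.99 in young mice, with 0.203 as the smallest FDR. The 250 bases before their starts are 98.8% identical. Reads that match both cannot be placed on 1 of them, so these separate folds are uncertain. Hspa5 had folds of -0.84 in old and -1.09 in young mice (FDR 0.480 in old and 0.0624 in young mice), and Hsp90b1 of -0.81 and -0.68.

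**Figure D4:**
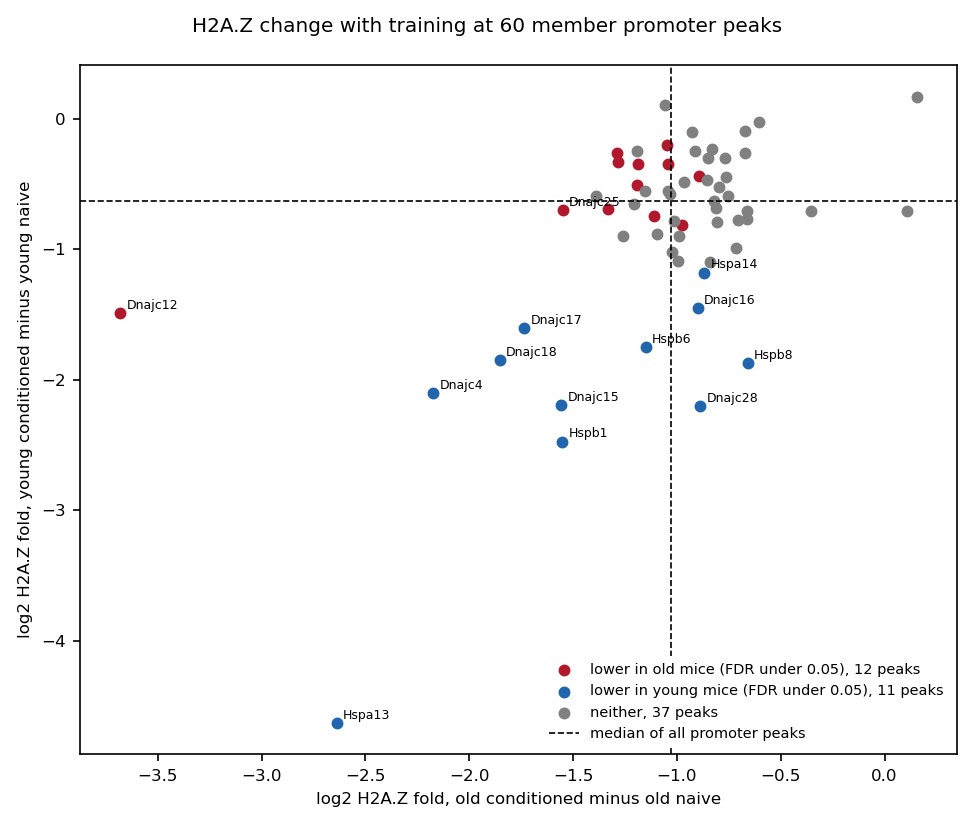
Authors' log2 H2A.Z folds with training at the 60 member promoter peaks, in old mice (horizontal axis) and young mice (vertical axis), coloured by calls at FDR 0.05, with dashed lines at the medians of all promoter peaks, -1.03 and -0.63. The calls were made on these same folds, so the places of the 12 old calls and 11 young calls partly follow from the calling. Hspa13 (-4.63 in young mice) and Dnajc12 (-3.68 in old mice) lie farthest out.

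The 2 sets of called peaks had different median levels and base composition, in members as over all promoter peaks. In old naive mice the median H2A.Z level, on the log2 scale of the authors' deposited table, was 8.60 for the 12 old calls and 7.18 for the 11 young calls, beside 7.91 for all 60. In young naive mice it was 7.57 for the old calls and 6.44 for the young calls, beside 7.11 for all. Over all promoter peaks of that table the medians ran the same way, 8.54 for old calls and 6.93 for young calls in old naive mice, and 7.49 and 6.46 in young naive mice. All 3 old conditioned libraries had a called peak at 11 of 12 old calls, and all 3 young conditioned libraries at 2 of 11 young calls. Over all promoter peaks these were 1811 of 1940 old calls and 509 of 1775 young calls. The calls rest on falls in these conditioned groups, so the peak counts there are not independent of the calling. Levels were summed over peaks of different width, whose medians were 1197 and 961 bp. Regions of H3K27ac, a mark of active promoters, overlapped 11 of 12 old calls and 6 of 11 young calls, and H3K4me3 overlapped all of both. Over all promoter peaks H3K27ac overlapped 82.8% of old calls and 66.3% of young calls, and H3K4me3 1924 of 1940 old calls and 1687 of 1775 young calls. Of all 60 peaks, 59 overlapped H3K4me3 (98.3%), 50 H3K4me1 (83.3%), 47 H3K27ac (78.3%) and 12 H3K27me3 (20%) in the authors' deposited table. Over all promoter peaks the shares were 93.8% for H3K4me3, 86.7% for H3K4me1, 66.8% for H3K27ac and 34.8% for H3K27me3.

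The RefSeq promoters of old calls were richer in CpG dinucleotides. The median number in 300 bases was 37 over 10 old-call genes (15 to 42), 16 over 9 young-call genes (13 to 27) and 22 over 29 member genes called at neither age. The same order was seen over all promoters, with 28 in 1478 old-call genes and 18 in 1352 young-call genes. The printed promoters of Dnajc25 and Dnajc28 show this: the 250 bases hold 25 CpG dinucleotides in Dnajc25, an old call, and 10 in Dnajc28, a young call. CpG number and mean H2A.Z level went together over 49 member peaks (Spearman 0.70) and over 9172 promoter peaks (0.44), so level and base composition cannot be told apart here. The young fold was the lower the lower the mean level (Spearman 0.49 over 60 member peaks, 0.41 over all promoter peaks), which was hardly so for the old fold (0.06 and 0.13). The mean level contains the values that give the fold, so these are descriptions only.

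**Figure D5:**
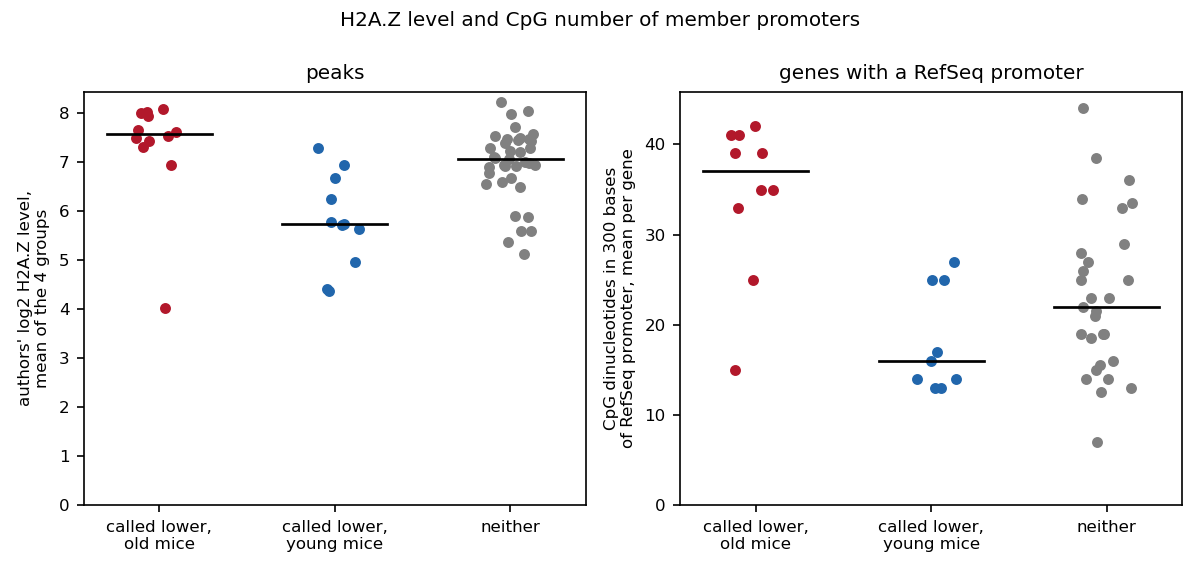
Left, the authors' log2 H2A.Z level averaged over the 4 groups for member promoter peaks; right, CpG dinucleotides in the 300 bases of RefSeq promoter for member genes; both by call with training in old mice, in young mice or at neither age, with a line at the median. Medians were higher for old calls than for young calls, at 7.56 and 5.73 for level and at 37 and 16 for CpG number, and the points of the sets overlapped in both.

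With age, 0 of 60 member peaks and 0% of all promoter peaks passed FDR 0.05 in naive mice, and likewise 0 and 0% in conditioned mice, in the authors' deposited table. At the authors' unadjusted p under 0.05 there were 12 of 60 member peaks in naive mice (17.2% of all promoter peaks) and 0 in conditioned mice (0.402%). The median fold of members was 0.15 in conditioned mice and 0.36 in naive mice, beside 0.10 and 0.44 over all promoter peaks of that table. The smallest FDR of a member in naive mice was 0.270, at Dnaja2, where old was above young.

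RNA and H2A.Z were set side by side for the 58 members with both. Of the 12 members whose H2A.Z fell in old mice, 7 had RNA above and 5 below 0 with training (log2 differences of -0.22 to 0.06, median 0.01). Of the 11 whose H2A.Z fell in young mice, 6 had RNA above and 5 below 0 (-0.46 to 0.22, median 0.03). In edgeR's test the smallest adjusted p was 0.695 for the 12 old calls and 0.730 for the 11 young calls, and 0 passed. Hspa13 and Dnajc4, both among the young calls, had RNA differences of opposite sign, 0.22 and -0.46. The rank correlation of the RNA difference with the H2A.Z fold over 58 genes was 0.14 in old and 0.15 in young mice, where that over 10817 genes was 0.03 and 0.02. RNA level and mean H2A.Z level were correlated at 0.47 over the 58 members and at 0.31 over 10817 genes, points that share the libraries and whose counts are not scaled by length.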

How the data were processed

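RNA was counted per gene in 12 hippocampal libraries, and the authors deposited these counts as whole reads; per the submitters' processing notes the tools included FastQC, Trim Galore 0.4, cutadapt, TopHat and HTSeq 0.6.1p2, with the strand setting and annotation not stated. H2A.Z came as a consensus peak table on mm10, with log2 folds, log2 group levels, p-values and FDR computed by the authors; the notes name R 3.1.0, DiffBind 1.12.2, Bowtie2 2.2.1, edgeR 3.8.6 and MACS2 2.0.10. It holds no values per library. Its old-group levels depart from its folds by offsets that are constant over peaks but differ by comparison, so levels of different groups were not compared. Peaks were set side by side within a group or by their level averaged over the 4 groups. The 12 input libraries were not analysed here.

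Samples were grouped by their labels. Counts were fitted in 1 model of 4 groups with edgeR 4.0.16 (TMM scaling, filterByExpr, quasi-likelihood test, prior count 2) in R 4.3.3 with limma 3.58.1, and p-values were adjusted by Benjamini-Hochberg over 14405 genes. The fit was tested on simulated data. DESeq2 1.42.0 was an alternative, beside another scaling, no filter, a choroid plexus covariate, each library left out, and for H2A.Z other distances and FDR. Tables used Python 3.11.15, numpy 2.4.6, pandas 2.3.3 and scipy 1.17.1, and figures matplotlib 3.10.9.

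Members and lists were chosen with earlier results of these data known. Named genes were 40 members fixed by name, the 6 members of smallest p per RNA comparison, the 5 highest and 5 lowest called folds per H2A.Z comparison, the 5 highest and 5 lowest mean RNA levels, and the 3 list genes of smallest p per comparison. Other names, among them the full lists of called peaks, the neighbours at shared starts and the genes whose promoters are printed, were chosen after their values were seen.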

Additional observations from a re-analysis of the deposited data

How the results depend on the processing

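No member was called in any of the 7 RNA comparisons under any of the 16 alternatives run. Of 5127 values of named genes under alternatives, 0 became called, 341 differed in sign from the value reported, and a further 25 gave no value. The smallest adjusted p of any member over the alternatives was 0.132, for Dnajc13 with age averaged over conditions and a choroid plexus covariate in edgeR's fit. No paired analysis was possible because each RNA library carries a number of its own in its title, and the H2A.Z table has no values per library.

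The counts of H2A.Z peaks that fell with training followed the FDR taken from the authors' deposited table. At FDR 0.01 there were 1 in old mice (Dnajc25) and 7 in young mice, against 12 and 11 at 0.05, and at FDR 0.10 there were 20 in old mice. Distances of 500 or 2500 bp, or only the strongest peak per gene, left the counts at 12 and 11. With 3 libraries per group, RNA intervals reached past 0.5 log2 for 6 members in old and 11 in young mice with training, so these intervals do not exclude differences of that size in those genes.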
